A study of Caenorhabditis elegans with 8 samples.

Results

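The nuclear hormone receptor genes of Caenorhabditis elegans that carry an nhr- symbol were followed in whole worms given one of a pair of plant biphenols. Members were the gene rows of the deposited read count table whose symbol began with nhr- and a number, which gave 257 rows. From these, 4 rows on loci that the authors added were set aside, as were 8 named genes, of which 6 had a gene row (nhr-8, nhr-142, nhr-178, nhr-210, nhr-232 and nhr-237). Several of those 6 were known from earlier results on these data to rise steeply, so every count below is that of the family without them. This left 247 rows of 21309, with 245 symbols, because nhr-113 and nhr-245 each stand on 2 rows.

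The worms received 200 µM magnolol for 1 h (3 libraries), 200 µM honokiol for 1 h (2 libraries), or DMSO as the control (3 libraries). Magnolol and honokiol are positional isomers from Magnolia bark, with the same allyl and hydroxyl groups placed differently on the joined rings. The sources used here do not name strain, stage or sex. Nothing in the labels ties replicates to separate cultures, and p-values therefore measure only how far these samples spread, a spread that may be technical.

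Nuclear hormone receptors are transcription factors that bind DNA through a pair of zinc fingers and, in most members, a small lipophilic molecule through a second domain. C. elegans has far more of them than vertebrates do, most descended from an HNF4-like ancestor and spread in tandem arrays, above all on chromosome V. A few have known roles in fat metabolism, vitamin B12 sensing, moulting or the response to foreign chemicals, while most have no described function.

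Levels are given in CPM, the counts set to a common library size, and each change is a log2 fold change with its SE after the ± sign. Values of the honokiol pair are those of honokiol 1 and then honokiol 2. The quasi-likelihood test of edgeR was used, two-sided, and calls were made where its Benjamini-Hochberg adjusted p, taken over all 16813 rows tested, lay under 0.05. Of the 247 rows 187 had counts enough to be tested. The other 60 were near silent in every group. Of these, 20 had 0 counts in all 8 libraries, and the highest count of any of them in any library was 14, for nhr-244. A row that passed only through the group where it is high would have to differ, so the tested rows do not stand for all members.

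Total counts per library were 30274330 to 35888186, with no group apart from the others. Magnolol 2 differed from magnolol 1 and 3, and control 3 from controls 1 and 2, more than the remaining replicates of those groups did from each other. Over all tested rows, chi-square per degree of freedom was 41.7 and 32.6 for the pairs with magnolol 2 against 8.5 without it, and 32.6 and 37 for the pairs with control 3 against 11.7. It was 29.9 between the honokiol libraries. Tissue and germline marker lists were all expressed, with no marker at 0 throughout. The summed level of 7 intestinal markers was 19754, 29738 and 21627 CPM in magnolol 1 to 3, 18764 and 12350 CPM in honokiol 1 and 2, and 19748, 16843 and 19711 CPM in controls 1 to 3. Magnolol 2 was the highest library and honokiol 2 the lowest for these markers, and likewise for those of body wall muscle (14616 and 7557 CPM), pharynx (1810 and 810 CPM), germline (2792 and 1885 CPM) and oocyte and eggshell (2395 and 1413 CPM). The sperm markers were lowest in magnolol 2 (374 CPM), and the neuronal ones varied little (295 to 341 CPM). The part of these library differences in the receptor changes was not tested. In whole worms, fewer cells of a type and less RNA per cell cannot be told apart.

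The summed level of the family was higher with either compound on the scaled CPM. Over all 247 rows it was 2176 to 2200 CPM in the magnolol libraries and 2443 to 2470 CPM in the honokiol libraries, against 1994 to 2033 CPM in control. The 3 groups did not overlap on that scale. As an unscaled share of each library's counts, the members held 0.219%, 0.201% and 0.217% in magnolol 1 to 3 and 0.244% and 0.262% in the honokiol pair, against 0.207%, 0.204% and 0.199% in controls 1 to 3. On that measure honokiol still lay above all other libraries, while magnolol 2 lay within the controls, so the separation of magnolol from control depends on the scaling. The median log2 change over the 187 tested rows was 0.11 with magnolol, against 0.00 over all tested rows (0.0027), and 0.24 with honokiol, against -0.01 over all tested rows. With upper-quartile scaling in place of TMM the magnolol median was 0.06 (0.0604). By sign alone, 64.2% of the members were higher with magnolol against 50.4% of all rows, and 73.8% were higher with honokiol against 47.5% of all rows.

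**Figure D1:**
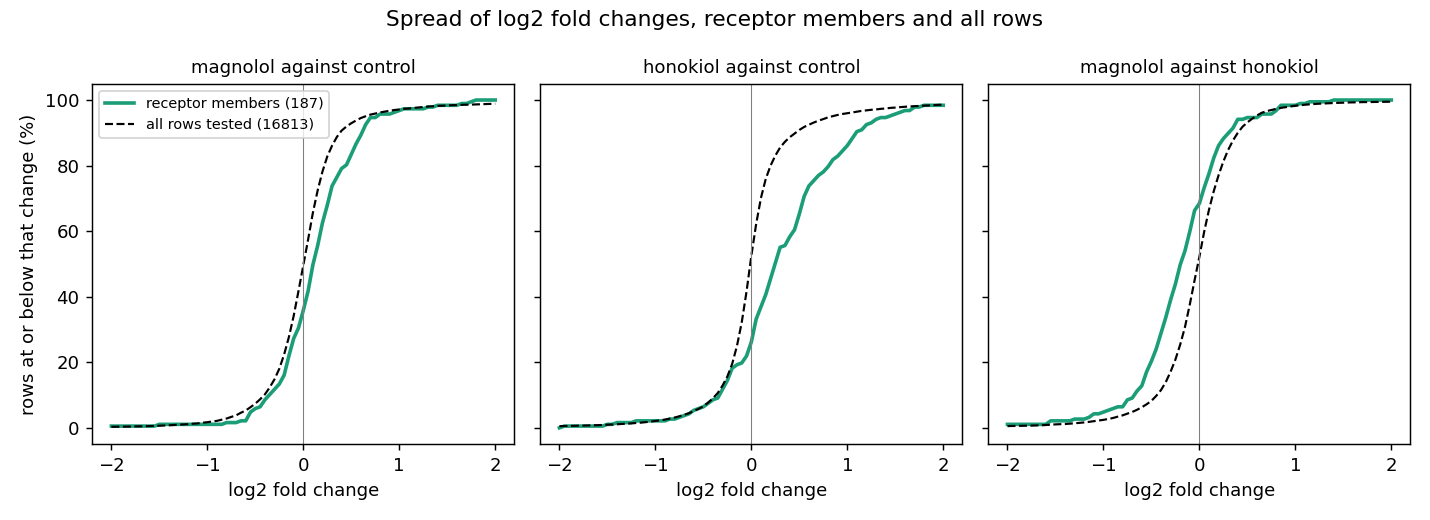
Cumulative share of rows (%, vertical axis) at or below each log2 fold change (horizontal axis) in the comparisons of magnolol with control, of honokiol with control and of the isomers with each other. The solid line is the 187 tested receptor members and the dashed line all 16813 tested rows; with honokiol the member line lies to the right of the dashed line around the medians (0.24 and -0.01), while the lines cross in the lower tail.

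The first comparison set magnolol against DMSO and asked which receptor transcripts differed after 1 h. Of the 187 tested members 12 rose (6.42%), against 2.16% of all tested rows, and 175 were not called. The changes of the 12 ran from 0.55 to 1.78 with a median of 0.65, and 2 of them reached 2-fold (1.08% of all rows were called and at least 2-fold higher). None fell in the main edgeR fit, against 0.702% of all rows (0.0773% by 2-fold or more). At an unadjusted p under 0.05 there were 37 members higher and 6 lower (8.6% and 6.82% of all rows), with DESeq2 calling 2 lower and limma-voom 0. All 3 magnolol libraries lay above all 3 controls for 37 members (19.8%, against 11.9% of all rows), and below them for 11 (5.88%, against 10.3%).

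Honokiol was then compared with those same DMSO libraries. Here 31 members rose (16.6%), against 3.04% of all tested rows, and 156 were not called. Their changes ran from 0.48 to 3.04 with a median of 0.96, and 15 of them reached 2-fold (1.77% of all rows were called and at least 2-fold higher). None fell in edgeR, against 0.393% of all rows (0.0952% by 2-fold or more). At an unadjusted p under 0.05 there were 60 members higher and 2 lower (6.75% and 4.09% of all rows), with DESeq2 calling 1 lower and limma-voom 0. Both honokiol libraries lay above all 3 controls for 73 members (39%, against 13.1% of all rows), and below them for 7 (3.74%, against 10.5%).

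Because the controls are shared, the 2 sets of calls are not independent. Of 32 genes called in any comparison, 11 rose with both compounds, 20 were called with honokiol alone, and nhr-137 with magnolol alone. The level of nhr-137 was 14, 13.2 and 13.1 CPM in magnolol 1 to 3 and 11.9 and 14.3 CPM in the honokiol pair, against 8.55, 8.83 and 10.2 CPM in controls 1 to 3. Both treated groups lay above control, and the change with honokiol was 0.51 ± 0.15 (adjusted p = 0.0892), beside 0.55 ± 0.13 with magnolol (adjusted p = 0.0403). The magnolol call of nhr-137 was lost without magnolol 1, 2 or 3 or control 1 or 2 (adjusted p = 0.129, 0.114, 0.124, 0.140 and 0.122), and its difference between the isomers was 0.04 ± 0.15.

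**Figure D2:**
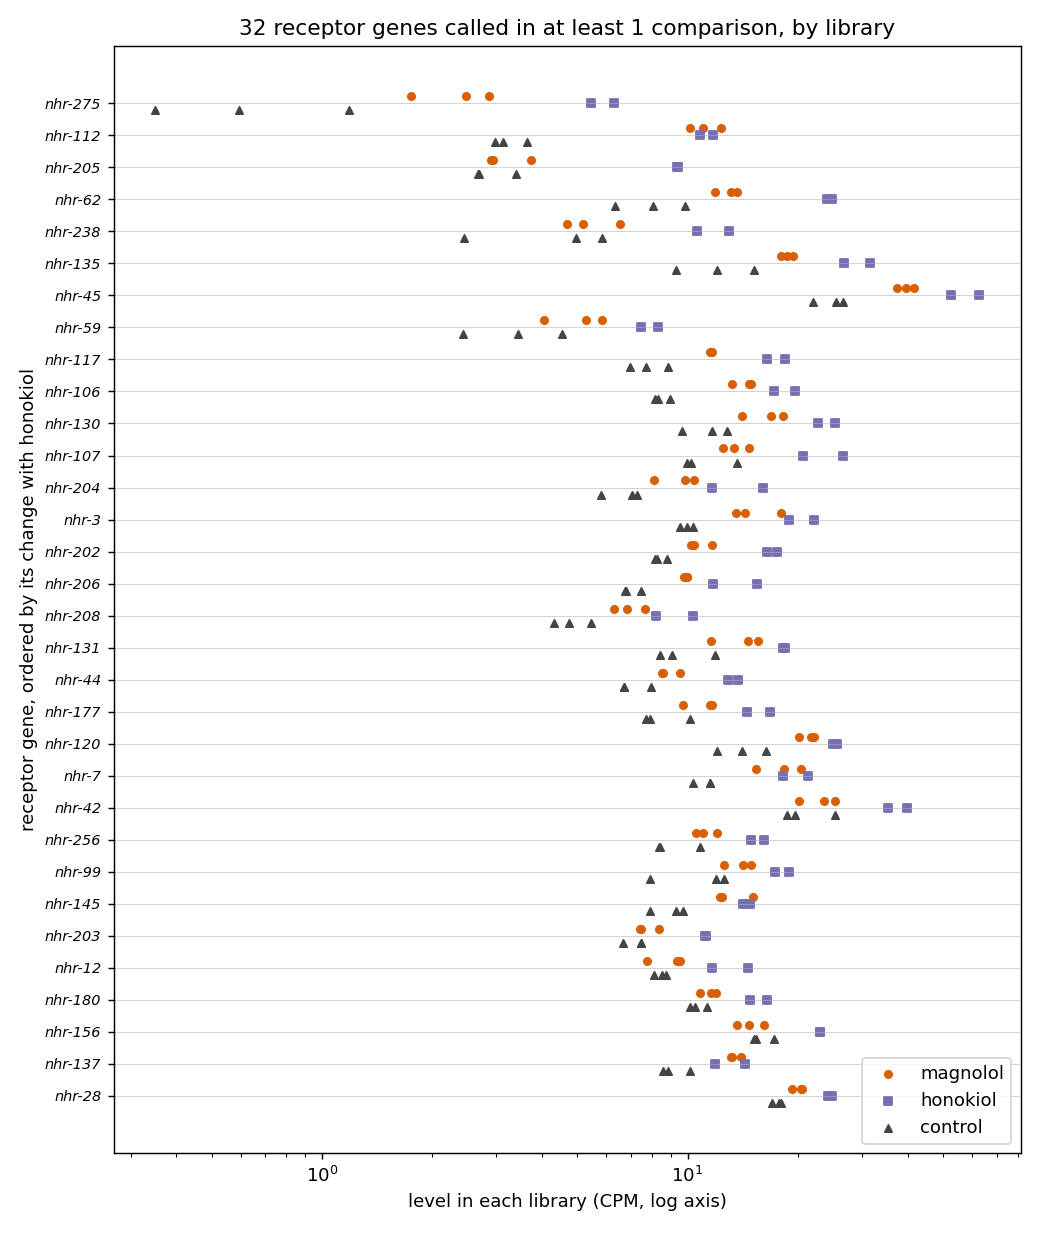
Level in each library (CPM, log axis) of the 32 receptor genes called in at least 1 comparison, ordered by their change with honokiol. Circles are the 3 magnolol, squares the 2 honokiol and triangles the 3 control libraries; for nhr-205 both squares sit near 9.4 CPM while circles and triangles sit between 2.68 and 3.73 CPM, and for nhr-112 circles and squares share the range 10.2 to 12.3 CPM above triangles at 2.98 to 3.64 CPM.

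Among the receptors with a known role, those of lipid metabolism come first. NHR-49 controls fatty acid desaturation and breakdown, NHR-80, NHR-13 and NHR-66 work with it on parts of that programme, NHR-62 is needed for the longer life of worms on a restricted diet, and NHR-64 is a close relative of vertebrate HNF4. Only nhr-62 of these 6 was called. It stands on chromosome I (WBcel235, 9839598 to 9844809, plus strand, WBGene00003652). Its level was 11.9, 13.7 and 13.1 CPM in magnolol 1 to 3 and 24.1 and 24.8 CPM in the honokiol pair, against 9.84, 8.03 and 6.35 CPM in controls 1 to 3. The 3 groups did not overlap, and honokiol was highest. The rise was 0.67 ± 0.15 with magnolol (adjusted p = 0.0261) and 1.60 ± 0.16 with honokiol (adjusted p = 1.19e-05). The magnolol call was lost without magnolol 2 or 3 or control 2 or 3 (adjusted p = 0.109, 0.102, 0.0875 and 0.0713), whereas the honokiol call held with each library left out.

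The nhr-49 transcript itself was at 103.7, 122.9 and 106.6 CPM in magnolol 1 to 3 and 115.6 and 101.4 CPM in the honokiol pair, against 98.6, 95 and 102.6 CPM in controls 1 to 3. Neither change was called, at 0.17 ± 0.10 (95% interval -0.03 to 0.38) with magnolol and 0.14 ± 0.11 (-0.09 to 0.36) with honokiol. The intervals leave room for a modest rise and for no more than a slight fall. For nhr-80 the level was 14.4, 15.1 and 15 CPM in magnolol 1 to 3 and 17.8 and 19 CPM in the honokiol pair, against 13.8, 13.8 and 11.8 CPM in controls 1 to 3, and the change with honokiol was 0.48 ± 0.13 (adjusted p = 0.0632). Both honokiol libraries of nhr-80 lay above every control. DESeq2 called nhr-80 with honokiol (adjusted p = 0.0495), as did the fit with the trend by exon length removed (0.0361). The changes of nhr-13, nhr-64 and nhr-66 lay between 0.01 and 0.23 with either compound, none of them called.

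Of 12 genes that NHR-49 and its partners are known to act on or that serve in fat use, 2 were called with each compound, both higher. Over all rows, 2.16% were called higher with magnolol and 3.04% with honokiol. The desaturase gene fat-5 stood at 37, 28.1 and 34.6 CPM in magnolol 1 to 3 and 42.1 and 44.6 CPM in the honokiol pair, against 18.9, 21.6 and 19.5 CPM in controls 1 to 3. That is a rise of 0.73 ± 0.12 with magnolol and 1.12 ± 0.13 with honokiol. The lipid-binding protein gene lbp-8 stood at 1.5 to 2.33 CPM with magnolol and at 4.84 and 4.04 CPM with honokiol, against 0, 0.357 and 0.397 CPM in controls 1 to 3. The other 10 genes, including fat-6, fat-7 and acs-2, were not called in edgeR, and DESeq2 called 1 of the 12 lower with magnolol. Their list had a median change of -0.01 with magnolol and -0.04 with honokiol.

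The vitamin B12 receptors were among the most abundant members and were not called. NHR-10 and NHR-68 switch on the propionate shunt, a bypass for propionate breakdown when B12 is short, and NHR-114 acts on the methionine cycle. Per kilobase of exon, nhr-68 was the highest member at 67.7 CPM per kb with magnolol, 74.8 with honokiol and 73.9 in control, followed by nhr-49 (52.1, 50.9 and 46.3), nhr-114 (37, 37 and 34.8), nhr-42 (20.7, 33.7 and 19) and nhr-10 (22.3, 25.2 and 21.5). That order is by the mean over all 8 libraries, and with magnolol and in control nhr-10 stood above nhr-42. The nhr-68 change was -0.13 ± 0.09 (95% interval -0.31 to 0.06) with magnolol and 0.02 ± 0.10 (-0.19 to 0.22) with honokiol. For nhr-114 it was 0.09 ± 0.09 with magnolol and 0.09 ± 0.10 with honokiol, and for nhr-10 it was 0.05 ± 0.11 and 0.23 ± 0.13. None of the 5 propionate shunt genes or of 11 methionine cycle genes was called with either compound in edgeR, DESeq2 or limma-voom. At an unadjusted p under 0.05, 1 of these 16 was lower with honokiol and 0 with magnolol (4.09% and 6.82% of all rows).

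Conserved receptors of development and moulting also gave no call against control in the main edgeR fit or limma-voom. At an unadjusted p under 0.05, 3 of 6 were higher with magnolol and 1 with honokiol (8.6% and 6.75% of all rows). NHR-23 and NHR-25 drive the moult, NHR-85 acts in developmental timing, NHR-41 is the relative of the fly receptor DHR78, NHR-67 specifies the anchor cell, and NHR-6 is the worm's NR4A receptor, with a role in ovulation. The largest shift was that of nhr-6, at 3.10, 4.67 and 2.80 CPM in magnolol 1 to 3 and 2.7 and 3.12 CPM in the honokiol pair, against 1.87, 2.02 and 1.42 CPM in controls 1 to 3. All 5 treated libraries of nhr-6 lay above all 3 controls. Its change was 0.99 ± 0.27 with magnolol (adjusted p = 0.0740) and 0.71 ± 0.30 with honokiol (adjusted p = 0.371). With magnolol, nhr-6 was called in DESeq2 (adjusted p = 0.0362) and in edgeR without a low-count filter (0.0417). For nhr-23 the change was 0.27 ± 0.10 with magnolol and -0.01 ± 0.11 with honokiol, and for nhr-41 it was 0.34 ± 0.12 and -0.04 ± 0.13. The low transcripts nhr-25, nhr-67 and nhr-85 had changes from -0.28 to 0.40. The member row of nhr-111 had 0 counts in every library, which says nothing of the gene's change. Another row with that symbol, on an added locus, had at most 19 counts in a library. The gene nhr-91 was not analysed here. Markers of the epidermis and the moult, summed over 10 genes, were at 745 to 825 CPM with magnolol and 525 to 625 CPM with honokiol, against 659 to 846 CPM in control, with a median change of 0.10 with magnolol and -0.40 with honokiol. Among them mlt-10, a gene of the moult, fell by 0.51 on the log2 scale with honokiol (adjusted p = 0.0224) and was higher with magnolol than with honokiol by 0.65 ± 0.12 (adjusted p = 0.00845). The first call was lost without honokiol 1 or 2 or control 3 (0.0722, 0.221 and 0.0685), and the other without honokiol 2 (0.182). The part of these markers in the receptor values was not tested.

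In the list of receptors for foreign compounds, metals and stress, nhr-45 rose. NHR-45 is known in C. elegans for switching on detoxification genes when mitochondria fail. The gene lies on the X chromosome (4656433 to 4660318, minus strand, WBGene00003635). Its level was 37.5, 41.6 and 39.7 CPM in magnolol 1 to 3 and 62.8 and 52.5 CPM in the honokiol pair, against 22, 25.5 and 26.7 CPM in controls 1 to 3. The groups did not overlap. The rise was 0.68 ± 0.11 (1.60-fold) with magnolol (adjusted p = 0.00145) and 1.22 ± 0.12 (2.34-fold) with honokiol (adjusted p = 5.48e-06), and both calls held with each library left out. It was the most abundant of the 32 called genes in CPM.

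NHR-176 is the receptor through which the fungicide thiabendazole induces a P450 gene, and NHR-14 represses iron uptake genes. The nhr-176 transcript was at 6.12, 7.25 and 7.75 CPM in magnolol 1 to 3 and 8.10 and 6.77 CPM in the honokiol pair, against 7.71, 7.91 and 7.51 CPM in controls 1 to 3. The groups overlapped, with changes of -0.13 ± 0.16 and -0.05 ± 0.17. For nhr-14 the changes were 0.19 ± 0.13 with magnolol and 0.21 ± 0.14 with honokiol. The zinc sensor gene hizr-1, a receptor with no nhr- symbol, was at 0.04 with magnolol and 0.17 with honokiol, not called. In the group of receptors tied to a tissue, nhr-31, which shapes the excretory cell, changed by 0.26 ± 0.09 and 0.18 ± 0.10, and nhr-40, a muscle development gene, by -0.15 ± 0.10 and -0.31 ± 0.11, again with no call. Genes nhr-2 and nhr-57 were not analysed here.

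**Figure D3:**
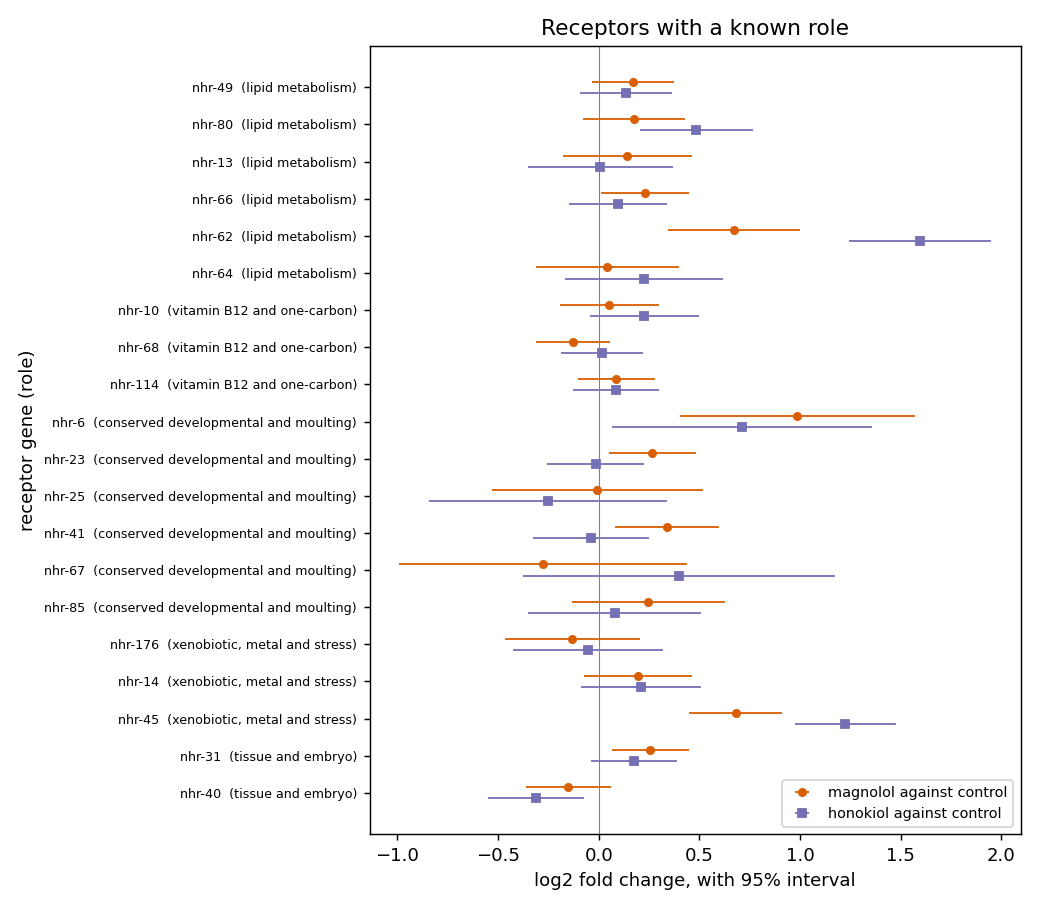
Log2 fold change (horizontal axis) with its 95% interval for the 20 tested receptors with a known role, named with that role on the vertical axis. Circles are magnolol and squares honokiol, each against control; nhr-62 and nhr-45 are the genes called, at 0.67 and 0.68 with magnolol and 1.60 and 1.22 with honokiol.

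For most of the other genes that rose no role is stated here. The steepest rise was that of nhr-275, a weakly expressed gene of chromosome V (2264912 to 2267058, minus strand, WBGene00021163). It stood at 2.48, 2.87 and 1.75 CPM in magnolol 1 to 3 and 5.46 and 6.29 CPM in the honokiol pair, against 0.350, 1.19 and 0.595 CPM in controls 1 to 3. The groups did not overlap, with honokiol highest. The change was 1.72 ± 0.37 with magnolol (adjusted p = 0.0192) and 3.04 ± 0.39 (8.21-fold) with honokiol (adjusted p = 1.30e-04). Leaving out magnolol 1 or 2 or control 1 or 3 ended the magnolol call (adjusted p = 0.0536, 0.0833, 0.0687 and 0.0688).

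For nhr-112, also on chromosome V (16722061 to 16723844, minus strand, WBGene00003702), the level was 12.3, 10.2 and 11 CPM in magnolol 1 to 3 and 11.7 and 10.8 CPM in the honokiol pair, against 2.98, 3.12 and 3.64 CPM in controls 1 to 3. The treated groups shared 1 range, about 3.4 times that of control. The rise was 1.78 ± 0.16 with magnolol (adjusted p = 2.96e-06) and 1.80 ± 0.17 with honokiol (adjusted p = 4.73e-06). These calls held with each library left out, the highest adjusted p being 6.39e-05 with magnolol and 8.93e-05 with honokiol.

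The gene nhr-205 behaved otherwise. It lies on chromosome V (10080083 to 10081776, minus strand, WBGene00011002) and stood at 3.73, 2.90 and 2.94 CPM in magnolol 1 to 3 and 9.44 and 9.38 CPM in the honokiol pair, against 2.69, 2.68 and 3.41 CPM in controls 1 to 3. Magnolol and control overlapped, and honokiol lay far above both. The change was 0.13 ± 0.20 (95% interval -0.30 to 0.56) with magnolol and 1.69 ± 0.21 (3.22-fold) with honokiol (adjusted p = 9.88e-05). The neighbouring gene nhr-12 was at 9.55, 9.34 and 7.75 CPM in magnolol 1 to 3 and 11.6 and 14.6 CPM in the honokiol pair, against 8.73, 8.09 and 8.5 CPM in controls 1 to 3. The nhr-12 call with honokiol (0.64 ± 0.16, adjusted p = 0.0418) was lost in 7 of the 8 fits that left out a library, at 0.0531 to 0.129 without any 1 magnolol or control library and at 0.482 without honokiol 2.

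Other rises shared by both compounds were those of nhr-106, nhr-117, nhr-135, nhr-3, nhr-120, nhr-7 and nhr-145. The first, nhr-106, was at 13.2, 14.9 and 14.7 CPM in magnolol 1 to 3 and 17.2 and 19.6 CPM in the honokiol pair, against 8.29, 8.98 and 8.17 CPM in controls 1 to 3. It rose by 0.75 ± 0.13 with magnolol (adjusted p = 0.00243) and by 1.12 ± 0.14 with honokiol (adjusted p = 7.70e-05), both calls holding with each library left out. The remaining genes of this set rose by 0.56 to 0.69 with magnolol and by 0.69 to 1.27 with honokiol, and in each of them all treated libraries lay above all controls. Their magnolol calls were less firm. That of nhr-7 was lost without magnolol 2 (adjusted p = 0.0558). For nhr-120 the same happened without magnolol 2 or 3 or control 1 or 3 (0.0634, 0.0908, 0.0663 and 0.0515), and for nhr-3 without magnolol 3 or control 1, 2 or 3 (0.160, 0.0914, 0.0582 and 0.0526). The nhr-117 call was lost without magnolol 1, 2 or 3 or control 1 or 3 (0.0935, 0.119, 0.126, 0.137 and 0.0744). The nhr-135 call was lost without magnolol 1, 2 or 3, honokiol 2 or control 1 or 2 (0.102, 0.149, 0.110, 0.0569, 0.129 and 0.142), and that of nhr-145 without any 1 of the 8 (0.0522 to 0.220). With honokiol, the calls of nhr-117, nhr-135, nhr-3 and nhr-120 held throughout, nhr-7 was lost without honokiol 1 (0.0594), and nhr-145 without honokiol 1 or 2 or control 2 (0.0709, 0.151 and 0.0751).

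Of the 31 calls with honokiol 15 held with each library left out in turn, and of the 12 with magnolol 3 did (nhr-45, nhr-106 and nhr-112). The number of members that rose with honokiol was 21 without honokiol 1 and 19 without honokiol 2, where the remaining library is assumed to vary like the other groups. With magnolol the number was 5 without magnolol 2 or magnolol 3, 6 without control 1 and 7 without control 2. With magnolol 2 and control 3 both left out, the libraries that stood apart, 5 members rose with magnolol and 27 with honokiol.

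Genes called with honokiol alone and holding throughout were nhr-205, nhr-130, nhr-202, nhr-107, nhr-44 and nhr-131. Their changes with honokiol ran from 0.90 to 1.69, and those with magnolol, not called in edgeR, from 0.13 to 0.53. With magnolol, nhr-130 (adjusted p = 0.0633) was called in DESeq2 (0.0254), without a low-count filter (0.0355), with the exon length trend removed (0.0366) and without magnolol 2 (0.0454), and nhr-131 without control 1 (0.0448). The reads of nhr-202 cannot be told apart from those of the overlapping nhr-201, nor those of nhr-44 and nhr-180 from ttc-17 and srh-266 on the other strand, since the sources used here do not name a strand setting. The other calls with honokiol alone were lost when 1 or another library was left out. Without honokiol 1, adjusted p was 0.0722 for nhr-204, 0.0727 for nhr-238 and 0.127 for nhr-208. Without honokiol 2 it was 0.0633 for nhr-42, 0.0633 for nhr-206, 0.104 for nhr-177 and 0.133 for nhr-256. The nhr-59 call was lost without honokiol 1, honokiol 2 or control 2 (0.0957, 0.0596 and 0.05), and nhr-99 without honokiol 1 or 2, control 1 or magnolol 3 (0.173, 0.116, 0.0771 and 0.05). For nhr-28 and nhr-203 the call was lost without either honokiol library (0.166 and 0.152, and 0.149 and 0.184), without control 1 or 2 (0.107 and 0.0613, and 0.0654 and 0.109) or without magnolol 1 or 3 (0.0506 and 0.0618, and 0.0515 and 0.0598). It was lost for nhr-180 without those same 6 libraries (0.0551 to 0.329), and for nhr-156 without honokiol 1 or 2, control 2 or 3 or magnolol 3 (0.145, 0.191, 0.105, 0.0662 and 0.0608).

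No downward shift passed the test in the main edgeR fit. The largest in size were those of barely detected genes, such as nhr-150 with magnolol (-2.0 ± 1.08, control mean 0.669 CPM) and nhr-281 with honokiol (-1.96 ± 1.55, control mean 0.244 CPM), and their SEs were wide. The lowest p with magnolol was that of nhr-79, at 15.2, 14.5 and 16.3 CPM in magnolol 1 to 3 and 19.6 and 21.2 CPM in the honokiol pair, against 19.3, 20.8 and 22.3 CPM in controls 1 to 3. Its magnolol libraries lay below all others, with a change of -0.44 ± 0.11 (adjusted p = 0.0543), and DESeq2 gave adjusted p = 0.0176. The same pattern was seen for nhr-69, a relative of HNF4, with a change of -0.35 ± 0.10 with magnolol (adjusted p = 0.0694, and 0.0284 in DESeq2) and 0.04 ± 0.11 with honokiol. Alternative edgeR fits called nhr-79 lower with magnolol. These used DESeq2 size factors (adjusted p = 0.0488), upper-quartile scaling (0.0413), a strict filter (0.0472) or removal of the exon length trend (0.0380). With upper-quartile scaling nhr-69 was called lower too (0.0433). With honokiol the lowest p among lower genes was that of nhr-138, at -0.45 ± 0.13 (adjusted p = 0.0986, and 0.0476 in DESeq2). These 5 genes were named after their values were seen.

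By their median control level, the genes that rose stood above the tested members as a whole. The median control level was 8.60 CPM for the 31 called with honokiol and 5.55 CPM for the 156 that were not. It was 9.08 CPM for those called with magnolol and 6.40 CPM for all tested members. The highest control mean was 24.7 CPM among called genes and 98.7 CPM among the others. The part of count level in which genes were called was not tested. Exon length differed little, with medians of 1375 bases for the genes called with honokiol, 1418 bases for the others and 1329 bases for all tested rows with a length (85.4% of them). After a trend of each library with exon length was removed, 35 members rose with honokiol and 14 with magnolol, and these included all 31 and all 12 of the original calls.

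By chromosome, 25 members on chromosome V rose with honokiol (21% of those tested there), with 4 of 16 on X, 1 of 7 on I and 1 of 27 on IV, and 0 of 9 on II and 0 of 5 on III in edgeR. At an unadjusted p under 0.05, 2 of those on III and 0 of those on II were higher with honokiol (6.75% of all rows were), and DESeq2 called 1 on III. With magnolol the counts were 6 on V, 4 on X and 1 each on I and IV. Over all tested rows 3.04% rose with honokiol and 2.16% with magnolol. Shares of all rows by chromosome were not taken, and differences between chromosomes were not tested. Members are often neighbours, and grouping nhr- genes with gaps of at most 20000 bases gave 41 groups. Inside such groups 22 tested members rose with honokiol (19.8%), and outside them 9 of 72 did (12.5%).

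The groups named here are on chromosome V, with at least 5 tested members. Each has at least 9 tested members or at least 2 that rose with honokiol, and differences between groups were not tested. Where a group was taken for its calls, a high median follows in part from that choice. The group so left out, with 7 tested members from nhr-185 to nhr-156, had 1 that rose with honokiol. Its median was 0.03 with honokiol, with 4 of the 7 above 0. On the left arm of chromosome V, a group of 11 genes from nhr-123 to nhr-131 (451451 to 497297) had 6 members that rose with honokiol, namely nhr-203, nhr-202, nhr-99, nhr-130, nhr-106 and nhr-131. All 11 changes were above 0, with a median of 0.66, and the median with magnolol was 0.36. Farther along the arm, a group of 10 from nhr-13 to nhr-96 (2192485 to 2235180) had 0 called members with either compound in edgeR, DESeq2 or limma-voom. At an unadjusted p under 0.05, 1 of the 10 was higher with honokiol and 1 lower with magnolol (6.75% and 6.82% of all rows). The median of that group was 0.04 with honokiol and -0.16 with magnolol, and 6 of the 10 were above 0 with honokiol. The next group, 9 genes from nhr-182 to nhr-226 (2257420 to 2296977), held nhr-275 and nhr-59. It had a median of 0.49 with honokiol, with 8 of the 9 above 0. Between 1603906 and 1629432, nhr-177, nhr-117 and nhr-238 rose with honokiol next to nhr-178 and nhr-237, both among the genes set aside. Of the 5 tested members there, 4 were above 0 with honokiol. In a group of 7 from nhr-161 to nhr-42 (6980587 to 7000651), 2 rose and all 7 were above 0 with honokiol, with a median of 0.89. In a group of 6 from nhr-206 to nhr-136 (12092006 to 12109313), nhr-206 and nhr-208 rose and all 6 were above 0 with honokiol, with a median of 0.87. The sources used here do not say how reads shared between near-identical neighbours were counted, so values of neighbouring paralogs are uncertain as separate measurements.

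**Figure D4:**
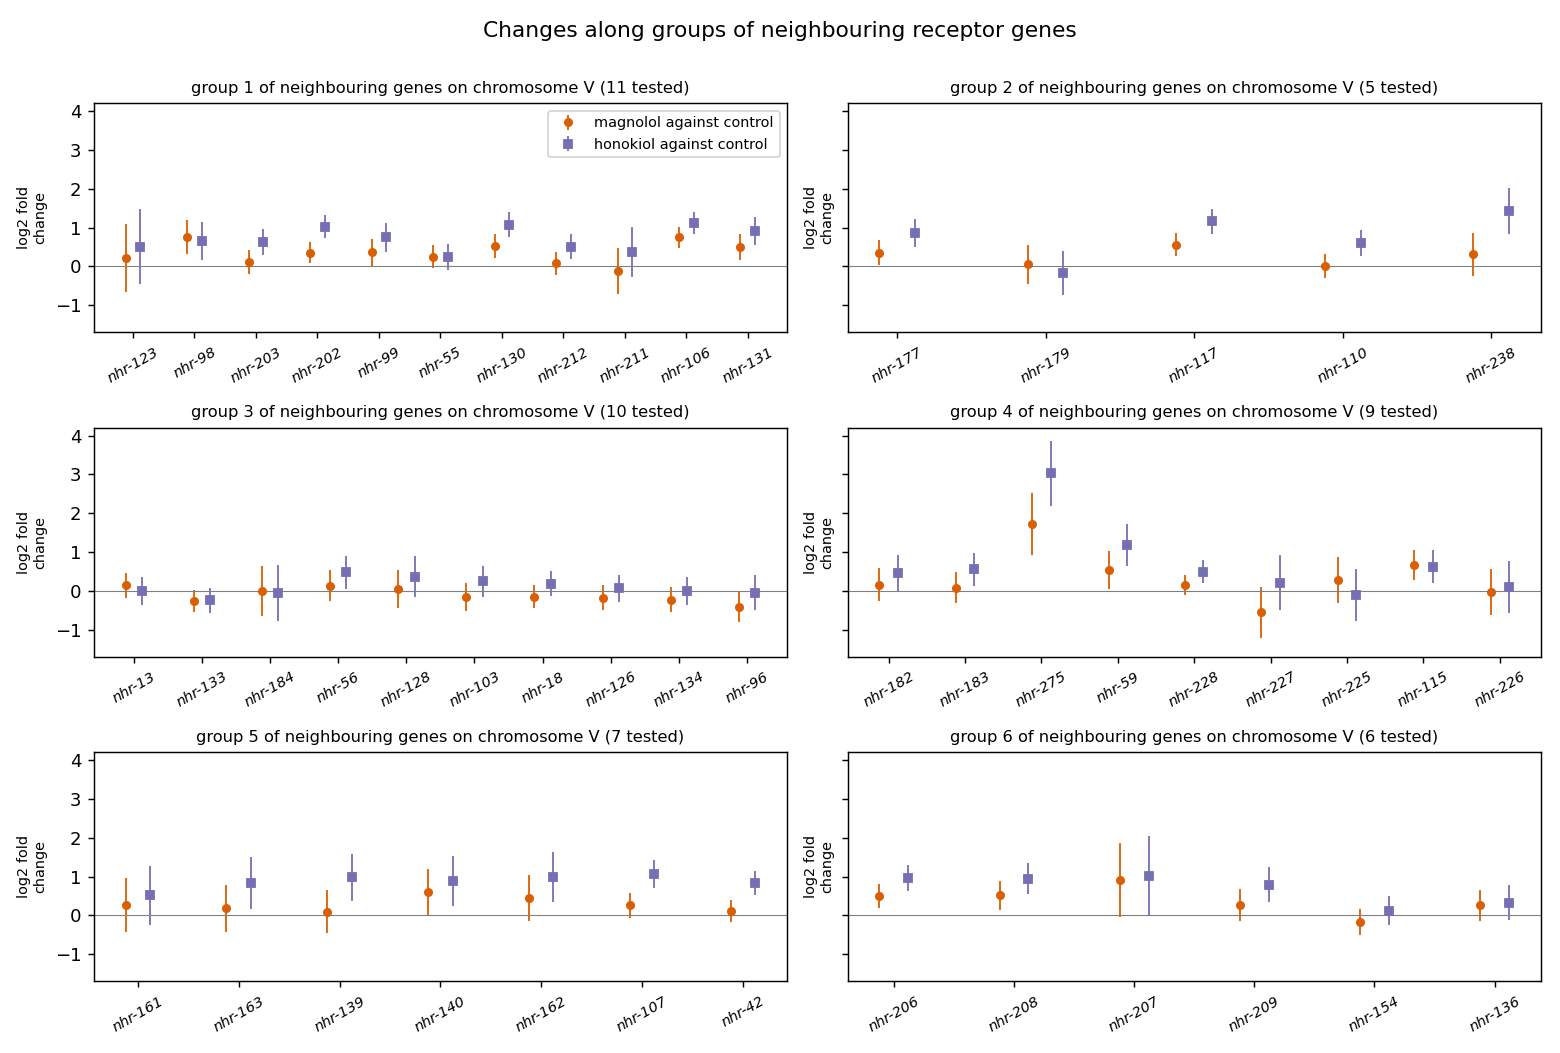
Log2 fold change with its 95% interval (vertical axis) of tested members in gene order along 6 groups of neighbours on chromosome V (horizontal axis), for magnolol (circles) and honokiol (squares) against control. All 11 honokiol values of group 1 are above 0, while those of group 3 have a median of 0.04.

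The third comparison set magnolol against honokiol at the same dose and time. No member was called higher with magnolol in edgeR (0.285% of all rows were), with 3 higher at an unadjusted p under 0.05 (8.95% of all rows) and 0 in DESeq2 and limma-voom. Called lower with magnolol than with honokiol were 7 members (3.74%, against 1.24% of all rows), and 180 were not called. Only nhr-205 among them differed by 2-fold or more (0.583% of all rows did). The median difference over the 187 was -0.19, against -0.01 over all tested rows. At an unadjusted p under 0.05, 47 members were lower with magnolol (7.11% of all rows were). All magnolol libraries lay below both honokiol libraries for 72 members (38.5%, against 18.3% of all rows), and above them for 10 (5.35%, against 16.4%). Of the 31 genes that rose with honokiol, each had a larger change with honokiol than with magnolol, an order to which their selection on honokiol contributes.

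The 7 genes were nhr-205, nhr-62, nhr-107, nhr-42, nhr-202, nhr-156 and nhr-45. The largest difference was that of nhr-205, at -1.56 ± 0.21 (95% interval -2.01 to -1.11, adjusted p = 5.79e-04), which held with each library left out. For nhr-62 it was -0.92 ± 0.16 (-1.27 to -0.58, adjusted p = 0.00607), lost without honokiol 2 (0.0820). The nhr-45 difference was -0.54 ± 0.12 (-0.79 to -0.29, adjusted p = 0.0286), lost without magnolol 1 or 3 or honokiol 1 (0.0748, 0.119 and 0.120). In nhr-62 and nhr-45 magnolol stood between honokiol and control.

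The nhr-42 transcript was at 23.7, 20.2 and 25.3 CPM in magnolol 1 to 3, against 35.4 and 39.8 CPM in honokiol 1 and 2, with 19.7, 18.7 and 25.3 CPM in controls 1 to 3. Magnolol overlapped control in nhr-42, and likewise in nhr-205, nhr-107 and nhr-156. The differences between the isomers were -0.70 ± 0.14 for nhr-42, -0.80 ± 0.16 for nhr-107, -0.66 ± 0.14 for nhr-202 and -0.63 ± 0.13 for nhr-156. These calls were lost without magnolol 2 (adjusted p = 0.0855, 0.0869, 0.100 and 0.0859 in the same order) and without honokiol 2 (0.342, 0.446, 0.319 and 0.195). For nhr-107, nhr-202 and nhr-156 they were also lost without magnolol 3 (0.0918, 0.129 and 0.0985), and for nhr-156 without honokiol 1 (0.0510). The number of members lower with magnolol was 4 without magnolol 2, 3 without magnolol 3 and 2 without honokiol 2.

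Where no difference between the isomers was called, the intervals were of different use. For nhr-112 the difference was -0.01 (95% interval -0.36 to 0.34), so that a gap of more than about 1.3-fold in either direction lies outside it. The intervals of nhr-7 (-0.45 to 0.18), nhr-137 (-0.28 to 0.35) and nhr-145 (-0.46 to 0.20) also span 0. For nhr-275 (-2.08 to -0.54) and nhr-238 (-1.7 to -0.52) the interval lies below 0, while adjusted p was 0.0964 and 0.0642. In limma-voom both were called (adjusted p = 0.0140 and 0.0270), and in DESeq2 nhr-238 was (0.0115).

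**Figure D5:**
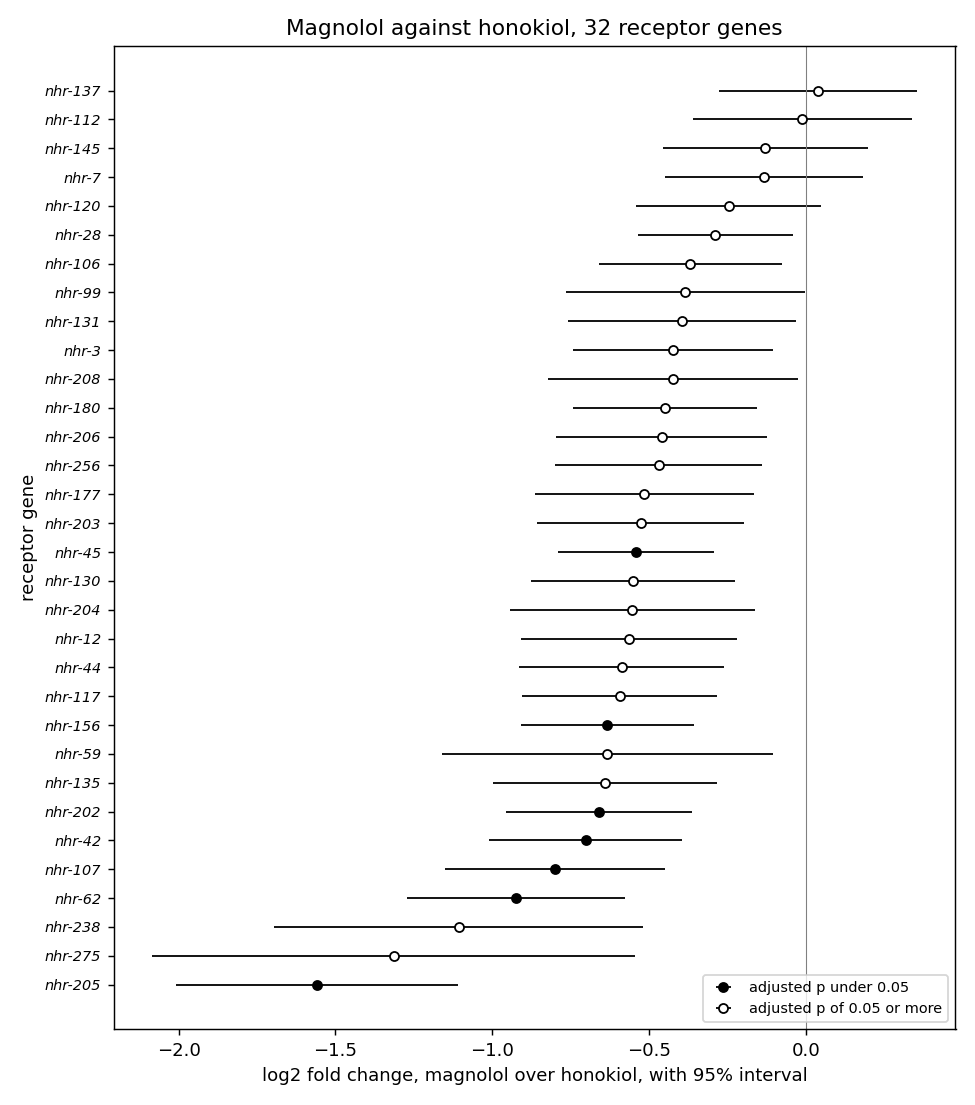
Log2 fold change of magnolol over honokiol (horizontal axis) with its 95% interval for the 32 receptor genes called in at least 1 comparison (vertical axis). Filled points have an adjusted p under 0.05; they are 7 genes, all below 0, with nhr-205 lowest at -1.56, and nhr-112 is at -0.01.

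Genes around the receptors were compared in the same way. Among 5 tested receptors without an nhr- symbol, including daf-12 and sex-1, none was called in edgeR in any comparison, while DESeq2 and limma-voom each called 1 higher with magnolol than with honokiol. At an unadjusted p under 0.05, 1 of the 5 was lower with honokiol than in control (4.09% of all rows were) and 0 differed with magnolol. Of 9 tested coregulator genes none was called against control in edgeR, DESeq2 or limma-voom. At an unadjusted p under 0.05, 2 were higher with magnolol and 2 lower with honokiol (8.6% and 4.09% of all rows). Between the isomers, din-1 and gei-8, which encode corepressors, were higher with magnolol than with honokiol by 0.76 ± 0.16 and 0.71 ± 0.16 (adjusted p = 0.0286 and 0.0436). Over all rows, edgeR called 0.285% higher with magnolol than with honokiol. DESeq2 called 4 of the 9 coregulators higher in that comparison and limma-voom 2. At an unadjusted p under 0.05, 5 of them were higher (8.95% of all rows). Both din-1 and gei-8 are long genes. With the trend by exon length removed the differences were 0.27 and 0.34 (adjusted p = 0.209 and 0.161). Without honokiol 2 they fell to 0.56 and 0.44, and both calls were lost. The din-1 and gei-8 calls were also both lost without magnolol 2 (0.105 and 0.165) and without magnolol 3 (0.0600 and 0.111). That of gei-8 was also lost without control 1 or 2 (0.0673 and 0.0511). The methionine cycle gene sams-1 was higher with magnolol than with honokiol by 0.56 ± 0.13 (adjusted p = 0.0422). Without honokiol 2 that difference fell to 0.38, and the call was lost. The sams-1 call was also lost without magnolol 2 or 3 or control 1 or 2 (0.127, 0.129, 0.0717 and 0.0547).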

How the data were processed

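Whole-worm RNA-seq was analysed from 1 table of read counts per gene that the authors deposited, whole numbers without normalization, 1 column per library. Total RNA was extracted with TRIZOL, per the labels. The submitters' processing notes list WBcel235 as build and DESeq2 as tool without saying what each was used for. Not given in the sources used here were the aligner, counting tool, annotation release, strand setting and treatment of multiply matching reads. Each library was placed by its title and library name. Positions and exon lengths come from the WBcel235 annotation, Ensembl release 115, matched by symbol (243 of 247 member rows). No sequence is printed.

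Tests used edgeR 4.0.16 in R 4.3.3. Rows were kept by filterByExpr by group, libraries scaled by TMM, and group means fitted over all 8 libraries with glmQLFit and tested two-sided with glmQLFTest. Residual degrees of freedom were 5, the prior added 9.35, and replicates varied by 14.1% (common biological coefficient of variation). CPM used TMM-scaled library sizes. As a check of the code, simulated counts with known changes were run through the same fit. Their control levels, library sizes and spread were taken from the fitted data. Members, role lists and alternatives were chosen with earlier results of these data known, so no test was made over the list. Named genes were those called in any comparison, the role lists, the 5 highest members per kilobase of exon and called genes of the lists of other genes. Alternatives were DESeq2 1.42.0, limma-voom 3.58.1, other scalings, filters and thresholds, the groups compared alone, the replicate number as a block, removal of the added loci, a correction by exon length (lowess per library), and each library left out. The main fit did not pair samples by replicate number, and whether the numbers pair them is not known. The library names of honokiol 1 and 2 are c1 and c3, and no library is named c2. Whether honokiol 2 belongs with the other replicates of its number in the replicate block is therefore also not known. Leaving out magnolol 2 and control 3 together was chosen after seeing the data. Plots used Python 3.11.15, pandas 2.3.3 and matplotlib 3.10.9.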

Additional observations from a re-analysis of the deposited data

How the results depend on the processing

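The number of members higher with magnolol, 12, was 6 with the replicate block, 4 at an adjusted p of 0.01, 2 at a 2-fold minimum, 5 with magnolol 2 and control 3 both left out, and 5 to 11 with 1 library left out. With honokiol the number, 31, was 15 at a 2-fold minimum and 19 to 31 with 1 library left out. The 7 members lower with magnolol than with honokiol became 14 without a low-count filter, 15 in DESeq2, 11 in limma-voom, 11 in a fit of only the groups compared, 2 with the replicate block, 2 at an adjusted p of 0.01, 1 at a 2-fold minimum, and 2 to 9 with 1 library left out. Against 0 lower members with magnolol, 1 was called with DESeq2 size factors, 2 with upper-quartile scaling, 1 with a strict filter, 2 in DESeq2, 1 with the exon length trend removed and 0 to 1 with 1 library left out (nhr-79, nhr-69 or nhr-150); with honokiol DESeq2 called 1. The median change with magnolol was 0.06 with upper-quartile scaling (0.0604, against 0.11). With honokiol it was 0.28 with the replicate block, 0.30 with magnolol 2 and control 3 both left out (0.3043) and 0.22 to 0.31 with 1 library left out, against 0.24. Between the isomers it was -0.23 with the strict filter and -0.26 to -0.14 with 1 library left out, against -0.19. Over 21 alternatives no called member changed sign, 209 values of named members lost a call and 33 gained one. Same-numbered libraries of different groups had correlations of deviations from -0.17 to 0.0862, and differently numbered ones from -0.0862 to 0.17. Deviations were taken from group means, so those of the 2 honokiol libraries mirror each other. These values therefore cannot decide whether the numbers pair the samples. The low-count filter left out 60 of 247 members, of which 20 had 0 counts throughout, and without it 227 were tested. The causes of these shifts were not tested.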

Other observations

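On loci that the authors added, 4 rows carry an nhr- symbol and were not among the members. The symbols nhr-111, nhr-115 and nhr-271 also stand on a gene row that is a member, and the values here are those of the added rows. All 4 were tested, and none was called in any comparison in edgeR. The change of the added nhr-271 row with honokiol was 0.63 ± 0.21 (adjusted p = 0.170). That row stood at 4.62, 5.02 and 5.80 CPM in magnolol 1 to 3 and 9.26 and 6.79 CPM in the honokiol pair, against 5.49, 5.80 and 4.2 CPM in controls 1 to 3. The row of nhr-115 was at 1.37, 2.00 and 1.56 CPM in magnolol 1 to 3 and 1.37 and 3.00 CPM in the honokiol pair, against 1.37, 0.565 and 1.16 CPM in controls 1 to 3. The row of nhr-190 was at 2.67 to 4.04 CPM with magnolol and 4.72 to 5.85 CPM with honokiol, against 2.68 to 5.52 CPM in control, and that of nhr-111 did not exceed 0.537 CPM in any library.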
